A study of Mus musculus with 8 samples.

Results

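Of the 155 distinct features in the table that the authors deposited for Paupar knockdown, 6 long non-coding or antisense RNA genes are described here, namely Gm9934, 6330403L08Rik, Gm39469, Gm26917, 9330188P03Rik and Arf4os. They were chosen by name, from a table that holds features already selected for change, so the levels and adjusted p-values that follow describe how they were chosen and test nothing. The cells were mouse neural stem cells grown from the subventricular zone (SVZ), the germinal layer along the lateral ventricles, in medium with EGF and FGF-2. The groups were 4 samples labelled shPaupar, nucleofected with a short hairpin RNA against the long non-coding RNA Paupar, and 4 samples labelled control. The labels do not say what control cells were given, and they give neither the strain, sex and age of the animals nor whether samples of a group are separate cultures. The authors' deposited table gives 1 level per group and none per sample, so no level below carries a standard deviation, the depth is unknown, and which samples were high or low within a group cannot be shown. Paupar itself had no row among those used here, so the knockdown was not checked. None of the other names on a list of 45 known long non-coding RNAs had a row either. Of the 45, 42 are in the annotation, and absence from these rows does not show that a gene was unchanged. Of the markers of neural stem and astroglial cells, Aldoc, Aqp4 and Slc1a2 were listed, 3 of 15, and of those of neuroblasts Dcx, 1 of 5, while 0 of the 6 markers of oligodendrocyte lineage cells, 0 of the 5 of microglia and 0 of the 3 of endothelium were. The listed markers were all lower in shPaupar cells, as were 65.2% of the 155 features. The part of these markers in the results below was not tested.

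Long non-coding RNAs are transcripts without a long open reading frame. Some act where they are made, on the gene beside them, and others act at distant loci, often as partners of chromatin proteins. Antisense RNAs are a class that is transcribed from the opposite strand of another gene and overlaps it. Paupar belongs to the same broad class. It is transcribed beside the transcription factor gene Pax6 and is known in mouse neural cells for binding the PAX6 protein and the chromatin regulator KAP1.

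Each of the 6 rows carried a locus that equals 1 annotated transcript of its gene in GENCODE M21 (assembly GRCm38), whereas only 3 of the 6 loci, those of 6330403L08Rik, Gm39469 and Arf4os, also equal the whole gene. For the other 3 the listed locus is that of a single isoform and not of the gene. The annotation gives 3 of the genes as antisense (Gm9934, 6330403L08Rik, Arf4os) and 2 as lincRNA, the class of intergenic RNAs (Gm39469, Gm26917). The remaining gene, 9330188P03Rik, is annotated as a processed transcript, although the measured isoform is itself classed as lincRNA. RefSeq, on the same assembly, lists Gm39469 as a protein-coding model, so its non-coding status rests on the GENCODE annotation.

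The sequences below show what separates the measured isoforms from their relatives and from the genes they overlap. They are read 5′ to 3′ from the GENCODE M21 transcripts. In the first 5, each 80 bases long, the capitals mark the first 40 bases of the exon downstream of a splice junction. The first pair shows that the measured Gm9934-202 and its sister isoform Gm9934-201 leave the same exon and differ after the junction.
Gm9934-202: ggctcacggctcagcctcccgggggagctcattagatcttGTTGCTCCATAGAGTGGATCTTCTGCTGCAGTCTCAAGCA
Gm9934-201: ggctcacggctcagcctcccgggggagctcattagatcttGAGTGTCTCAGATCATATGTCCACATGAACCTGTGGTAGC
The other 3 show the first splice junction of the RNAs that are not annotated as antisense.
9330188P03Rik-206: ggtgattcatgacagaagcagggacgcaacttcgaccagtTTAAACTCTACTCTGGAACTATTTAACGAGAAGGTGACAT
Gm39469-201: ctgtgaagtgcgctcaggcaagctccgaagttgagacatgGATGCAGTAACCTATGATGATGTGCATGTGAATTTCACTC
Gm26917-201: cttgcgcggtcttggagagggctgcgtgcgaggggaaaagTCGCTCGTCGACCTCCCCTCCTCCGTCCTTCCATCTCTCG
6330403L08Rik has no intron, so the 120 bases shown for it (chr5:138997311-138997430, plus strand) are those where its overlap with the exons of Pdgfa ends, with the bases antisense to a Pdgfa exon in capitals.
6330403L08Rik-202: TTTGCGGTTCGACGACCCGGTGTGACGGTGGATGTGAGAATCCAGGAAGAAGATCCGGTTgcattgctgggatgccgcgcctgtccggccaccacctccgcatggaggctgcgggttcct
The first exon of Arf4os (241 bases) is shown because Arf4 starts within it, and the 110 bases in capitals are antisense to the first exon of Arf4.
Arf4os-201: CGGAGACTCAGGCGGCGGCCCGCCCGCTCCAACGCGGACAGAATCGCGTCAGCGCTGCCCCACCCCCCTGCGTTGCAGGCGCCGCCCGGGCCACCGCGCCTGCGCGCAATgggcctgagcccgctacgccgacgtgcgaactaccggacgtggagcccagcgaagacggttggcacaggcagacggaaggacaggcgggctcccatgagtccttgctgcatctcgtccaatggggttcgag

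Among the antisense RNAs, all 3 were higher in shPaupar cells, as were 34.8% of all 155 features. In samples of many cells such as these, fewer cells that express an RNA and less of it per cell cannot be told apart. Gm9934 (chr7:93067331-93080794, minus strand) had a level of 594 in shPaupar cells and 7.37 in control cells. The log2 ratio of these levels was 6.33, an 80.6-fold difference, and the authors' deposited table gives a log2 fold change of 6.32 with an adjusted p of 4.98e-10. 6330403L08Rik (chr5:138995056-139000577, plus strand) had a level of 537 in shPaupar cells and 0.962 in control cells. Its log2 ratio was 9.12, a 558-fold difference against a control level near 0, with a log2 fold change of 8.95 and an adjusted p of 3.14e-06 in the authors' deposited table. Read as two-sided Wald tests, an assumption that the file does not settle, the deposited p-values imply standard errors of 0.83 for the log2 fold change of Gm9934 and 1.46 for that of 6330403L08Rik. The fold changes differ by 2.63. The combined standard error is 1.68 if the estimates are independent, which is unknown, since both come from the same samples. Their order is therefore not taken as firm. Arf4os (chr14:26628407-26638183, minus strand) had a level of 11.0 in shPaupar cells and was listed at 0 in control cells, with an adjusted p of 0.0363 in the authors' deposited table. No ratio is given for a gene listed at 0 in a group.

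The genes not annotated as antisense went both ways. 9330188P03Rik (chr14:105589549-105593775, plus strand) had a level of 21.2 in shPaupar cells and was listed at 0 in control cells, with an adjusted p of 0.00617 in the authors' deposited table. Gm39469 (chr9:124270358-124282139, minus strand) was listed at 0 in shPaupar cells and had a level of 38.6 in control cells, with an adjusted p of 0.000958 in the authors' deposited table. Gm26917 (chr17:39845074-39846245, plus strand) was also listed at 0 in shPaupar cells, against 7368 in control cells, with an adjusted p of 0.00282 in the authors' deposited table. Unlike the other 5, it was abundant in the group where it was found, both as deposited and per length of transcript.

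**Figure D1:**
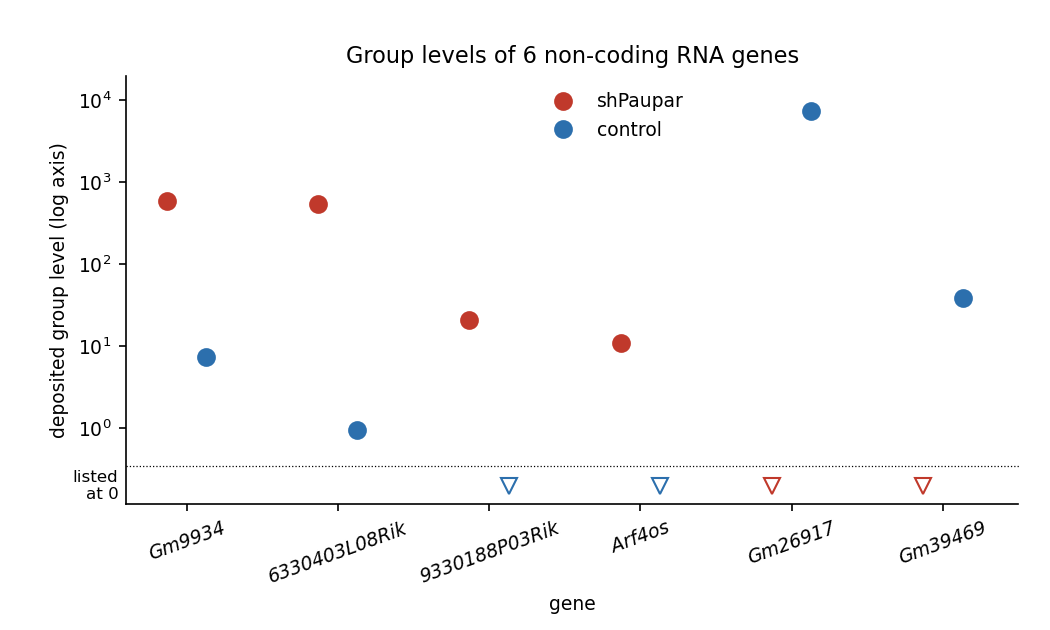
Deposited group level (log axis) of each of the 6 genes in shPaupar (red) and control (blue) cells, 1 value per group, with open triangles for groups listed at 0. Gm9934, 6330403L08Rik, 9330188P03Rik and Arf4os were higher in shPaupar cells, and Gm26917 and Gm39469 were listed at 0 there.

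Taken per length of the measured transcript, the order of the low genes changes. Per kilobase, Gm9934 stood at 347 and 6330403L08Rik at 97.2 in shPaupar cells, since the second is 5522 bases long and the first 1713. Arf4os (566 bases) stood at 19.5 per kilobase and 9330188P03Rik (2472 bases) at 8.57 in shPaupar cells, the reverse of the order of their levels. In control cells Gm26917 (869 bases) stood at 8479 per kilobase and Gm39469 (461 bases) at 83.6. These values hold only if the deposited levels are not already scaled by length, which the file does not state, and no spread between samples is known for them.

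In all, 4 of the 6 genes were higher and 2 lower in shPaupar cells. Of all features listed by the authors, 34.8% were higher and 65.2% lower, and 100% (155 of 155) passed an adjusted p of 0.05, since the table is a list of passing features. If the adjustment was that of Benjamini and Hochberg, the rank of 488 that the p-values imply for Arf4os means that more features passed than the 155 used here, and these shares are of the 155 alone. Of the 6 genes, 4 were listed at 0 in a group, 2 in shPaupar and 2 in control cells, against 23 of all 155 features (14.8%). The median level in the higher group was 288 for the 6 genes and 817 for all features. The 2 genes above 0 in both groups had absolute log2 ratios with a median of 7.73, and the 132 such features of the whole table had a median of 0.64. Only 4 features in the table had an absolute log2 ratio of at least 6, and these genes are 2 of them. Of the 6 genes, 5 are among the 8 features deposited with more digits than the rest, all of them non-coding. Whether those were selected by the same rule as the other features is unknown, so these shares and medians may not be comparable.

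**Figure D2:**
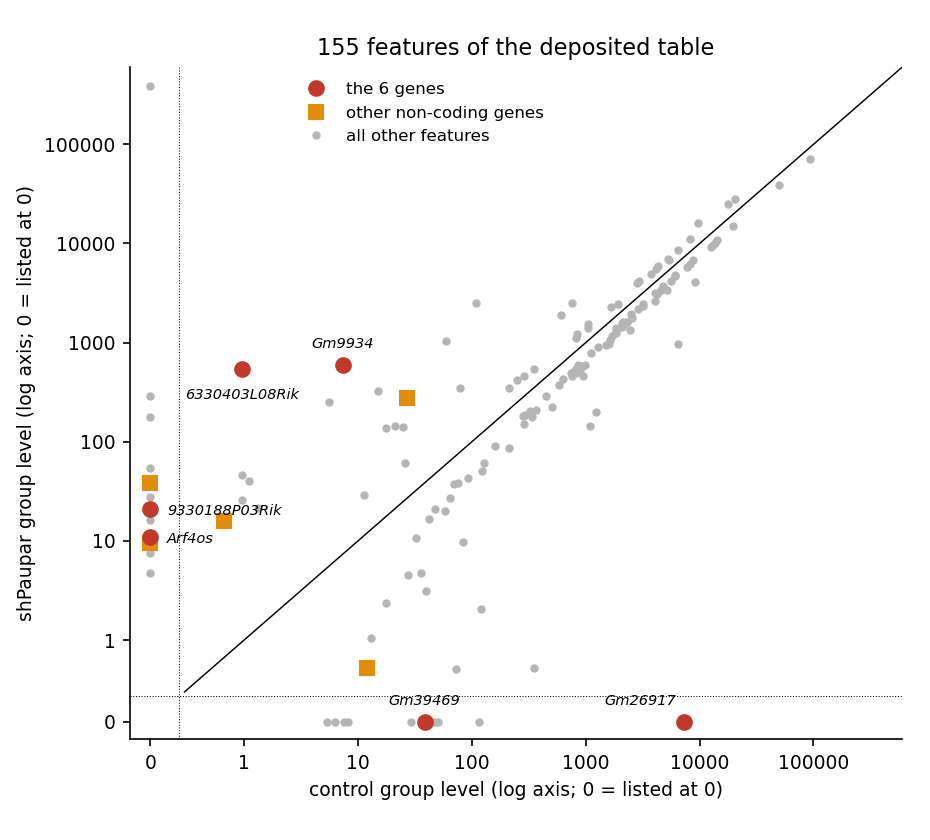
Deposited level in shPaupar cells against the level in control cells (log axes, with a separate position for 0) for the 155 features, with the 6 genes in red, 5 other non-coding genes in orange and all other features in grey. The line marks equal levels, and 4 of the 6 genes lie at a position for 0 because a group was listed at 0.

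The other rows annotated as non-coding genes were few. There were 5, of which 4 were higher in shPaupar cells. Gm26848, a lincRNA gene on chromosome 17, had a level of 278 in shPaupar cells and 27.2 in control cells, with an adjusted p of 0.01005 in the authors' deposited table. Gm6145, a processed transcript gene on chromosome 14, had a level of 15.8 in shPaupar cells and 0.665 in control cells, and the authors' deposited table gives an adjusted p of 0.0245. Gm10419 (9.43) and the locus listed as Zfp469 (38.7), both annotated as lincRNA genes, had these levels in shPaupar cells and were listed at 0 in control cells. 4930506C21Rik was the 1 that was lower, at 0.520 in shPaupar cells and 11.9 in control cells, and the authors' deposited table gives an adjusted p of 0.0411. Together with the 6 genes, 8 non-coding rows were higher and 3 lower in shPaupar cells, beside 46 higher and 98 lower among the other 144 features, a difference that was not tested. The 8 features deposited with more digits than the rest were all non-coding. Whether the non-coding rows and the other features were selected by the same rule is unknown, so these counts may not be comparable.

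The features most like Gm9934 and 6330403L08Rik were sought by the difference in log2 ratio, over the 2 group values. The other 4 genes, listed at 0 in a group, have no ratio of their levels and were not searched. Nearest to Gm9934 were Acbd5, an acyl-CoA-binding protein gene, with a log2 ratio of 5.58, and Pan2, a poly(A) ribonuclease gene, with 5.48. Nearest to 6330403L08Rik was Gm9934 itself, 2.79 away, followed by Acbd5 at 3.55. Acbd5 and 6330403L08Rik had the same control level, 0.962, so both ratios rest on that value near 0. No feature above 0 in both groups had a higher log2 ratio than 6330403L08Rik. In the other direction, a protein-coding feature had a ratio larger in size, at -9.40.

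The loci of the antisense RNAs lie at or across the starts of protein-coding genes. Gm9934-202 begins inside the single exon of Fam181b, a gene expressed in the developing mouse nervous system, 929 bases past the Fam181b start. Its locus runs back over that start, but only its intron crosses it, so the spliced RNA does not hold the start itself. Of its 1713 bases, the 904 bases of its first exon (52.8%) are antisense to the Fam181b exon. It also lies in an intron of Gm26862, a non-coding gene on the opposite strand, with 0 bases of exon shared. 6330403L08Rik begins 19 bases from the start of transcript Pdgfa-202, on the opposite strand and pointing away from it. Pdgfa encodes the platelet-derived growth factor A chain, a mitogen of glial progenitors. Other Pdgfa transcripts start further upstream, and 813 of the 5522 bases of 6330403L08Rik (14.7%) are antisense to their exons.

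The start region shared by Pdgfa and 6330403L08Rik is shown because both genes begin in it. It is the RefSeq promoter window of Pdgfa (GRCm38.p6, chr5:138994895-138995194, minus strand, 250 bases before to 50 bases after the start), with the 139 bases that lie in 6330403L08Rik in capitals.
Pdgfa promoter: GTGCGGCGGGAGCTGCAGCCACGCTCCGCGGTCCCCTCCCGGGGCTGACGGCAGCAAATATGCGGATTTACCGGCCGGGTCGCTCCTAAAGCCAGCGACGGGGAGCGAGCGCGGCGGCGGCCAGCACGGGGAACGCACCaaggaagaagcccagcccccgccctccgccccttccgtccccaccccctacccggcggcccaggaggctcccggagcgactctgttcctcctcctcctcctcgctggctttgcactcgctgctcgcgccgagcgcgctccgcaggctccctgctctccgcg
The window holds GGGCGG, the GC box, as do 35.7% of the 32851 RefSeq promoter windows searched on both strands, and 37 CG dinucleotides against a median of 7.

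Arf4os and Arf4 overlap head to head. Arf4 encodes a small GTPase of the Golgi, and its first exon shares 110 bases with the first exon of Arf4os, the leading capitals in the sequence above. At its other end Arf4os shares 67 bases with exons of Dennd6a, a gene of the DENN domain family of Rab exchange factors. The RefSeq promoter window of Arf4 (chr14:26637884-26638183) ends on the first base of Arf4os. It holds the GC box, 35 CG dinucleotides and CCAAT, which occurs in 37.4% of windows.

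**Figure D3:**
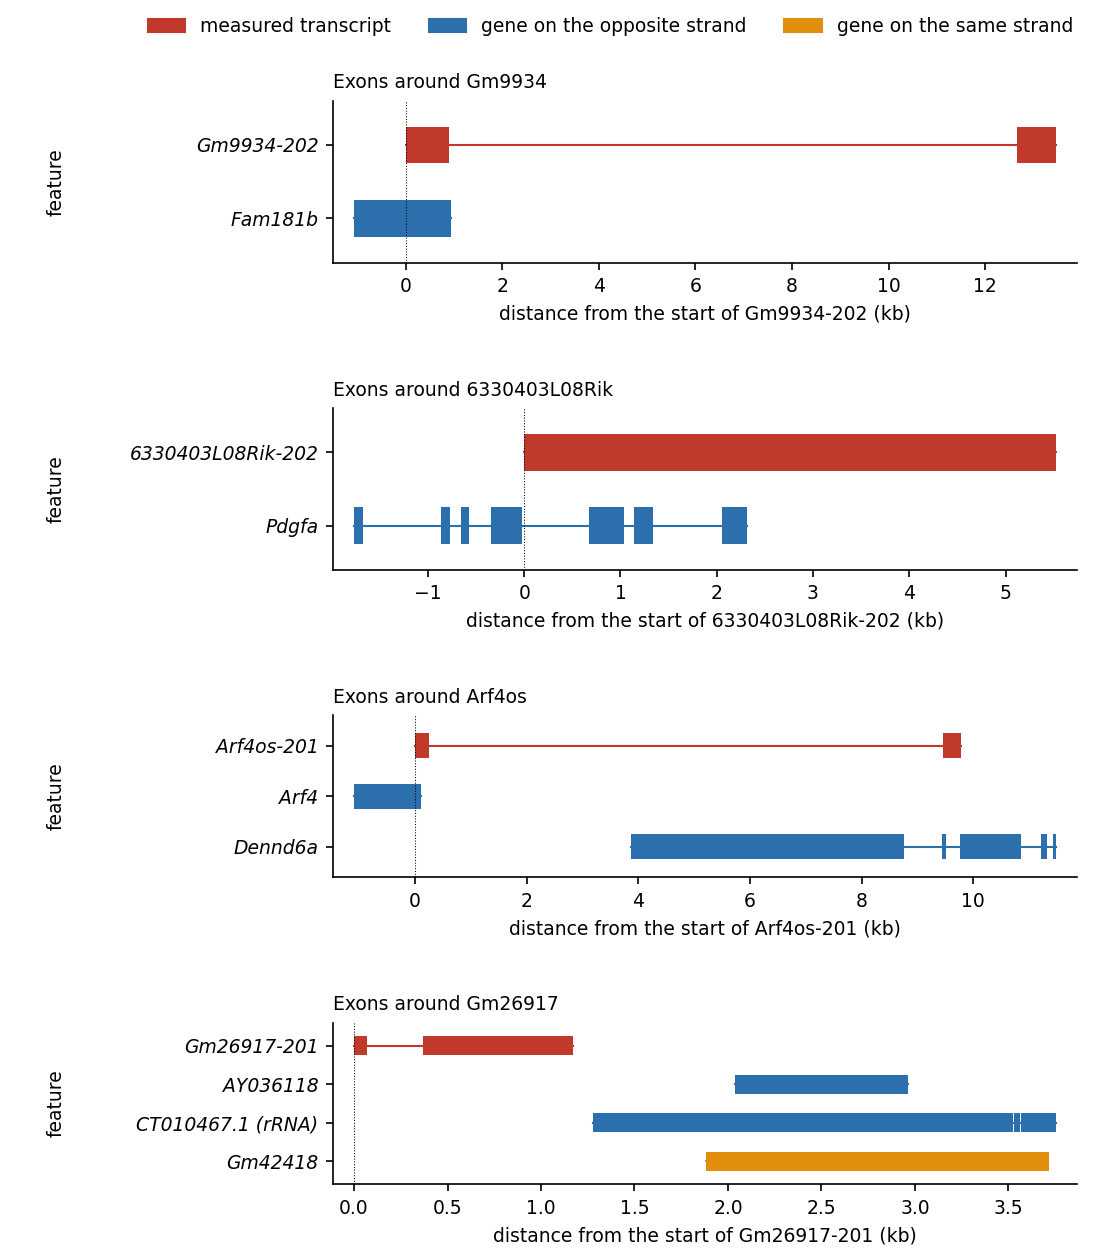
Exons (boxes) of the measured transcripts of Gm9934, 6330403L08Rik, Arf4os and Gm26917 (red) and of genes on the opposite (blue) or the same (orange) strand, by distance in kb from the start of the measured transcript and in its own direction. The first 3 overlap exons of Fam181b, Pdgfa, and Arf4 with Dennd6a, while Gm26917 stops 107 bases short of the ribosomal RNA gene.

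Fam181b, Pdgfa, Arf4 and Dennd6a had no row among those used here, so sense and antisense levels could not be set side by side. The use of strand is not given in the sources used here. Without it, reads of the 904, 813 and 177 shared bases cannot be told apart from reads of the sense genes, and their part in the levels was not tested.

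The lincRNA Gm26917 lies beside ribosomal RNA. Its gene ends 11 bases before the rRNA gene CT010467.1, which is on the opposite strand, and the measured isoform ends 107 bases before it. Its 869 bases were 72.3% G or C, above 99.9% of the 18930 transcripts in the GENCODE long non-coding set, whose median is 46.5%. Per the labels' protocols, ribosomal RNA was removed from these libraries with probes. A list of 10 names related to ribosomal RNA, 8 of them in the annotation, was drawn up with Gm26917 on it. None of the other names had a row, whereas Gm26917 was a chosen gene and its row was given in advance. The part of ribosomal RNA in the level of Gm26917 was not tested.

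Gm39469 overlapped no other annotated gene. Its nearest protein-coding gene was 2010315B03Rik, 9.66 kb away on the same strand. It was the 1 gene of the 6 with a RefSeq promoter window (chr9:124283368-124283667, minus strand), whose start lies 1278 bases upstream of the GENCODE start. Capitals mark matches to TATAAA, the sequence of the TATA box, and to CCAAT read on the opposite strand. Matches were sought anywhere in the window, and their distance from the start was not taken into account.
Gm39469 promoter: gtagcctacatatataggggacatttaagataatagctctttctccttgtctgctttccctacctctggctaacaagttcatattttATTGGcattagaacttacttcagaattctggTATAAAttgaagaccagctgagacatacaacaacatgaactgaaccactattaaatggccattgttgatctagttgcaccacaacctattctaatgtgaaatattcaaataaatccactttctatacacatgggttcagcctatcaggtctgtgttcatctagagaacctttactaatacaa
TATAAA occurs in 13.6% of all windows on either strand, and the window has 0 CG dinucleotides. CACGTG (7.15% of windows) and TGACGTCA (1.79%) were found neither here nor in the windows of Pdgfa and Arf4 described above. The Fam181b window holds TATAAA and GGGCGG. Dennd6a, which Arf4os also overlaps, has 2 windows, and both hold CACGTG.

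9330188P03Rik and Gm6145 were neighbours that were both higher in shPaupar cells. The genes lie on opposite strands and their spans overlap by 11040 bases, whereas the measured isoforms are 27.2 kb apart. The levels were 21.2 in shPaupar cells and listed as 0 in control cells for 9330188P03Rik, and 15.8 in shPaupar and 0.665 in control cells for Gm6145. The nearest protein-coding gene to 9330188P03Rik was Ndfip2, an adaptor gene of Nedd4-family ubiquitin ligases, 280 kb away. Gm6145 was the 1 other row of the authors' deposited table within 1 Mb of any of the 6 genes. The nearest rows to the others were Tenm4 for Gm9934 (3.09 Mb), Ctnnb1 for Gm39469 (3.31 Mb), Pla2g7 for Gm26917 (3.72 Mb), Zfp12 for 6330403L08Rik (4.23 Mb) and Tssk4 for Arf4os (29.0 Mb).

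How far a level can belong to 1 isoform differs between the genes. All windows of 50 bases of each measured transcript were looked up in every annotated transcript, on both strands. For 6330403L08Rik-202, 1 of 5473 windows was found in no other transcript. Its isoform 6330403L08Rik-201 is the same but for 1 base at an end (5522 bases in the measured isoform and 5521 in the other). For 9330188P03Rik-206 the count was 48 of 2423 (1.98%), with 85.5% of windows shared with the retained-intron isoform 9330188P03Rik-204. The same sequence was found for 33.2% of its windows in another gene, Gm47881, whose part in the level was not tested. For Gm26917-201 the count was 46 of 820 (5.61%), and these cross the splice junction shown above, while the rest occur in the unspliced Gm26917-202. Gm9934-202 had 807 windows of its own out of 1664 (48.5%), all in or next to the exon that follows the junction shown.

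Gm39469-201 and Arf4os-201 are the sole annotated isoforms of their genes. All 412 windows of Gm39469-201 occurred nowhere else, and 441 of the 517 of Arf4os-201 (85.3%) did not, the rest being those antisense to Arf4 and Dennd6a. None of the sister isoforms had a row in the authors' deposited table, so how the authors divided reads between isoforms was not tested. For 6330403L08Rik the listed locus is also that of the whole gene, so its row may hold the gene and not the isoform.

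**Figure D4:**
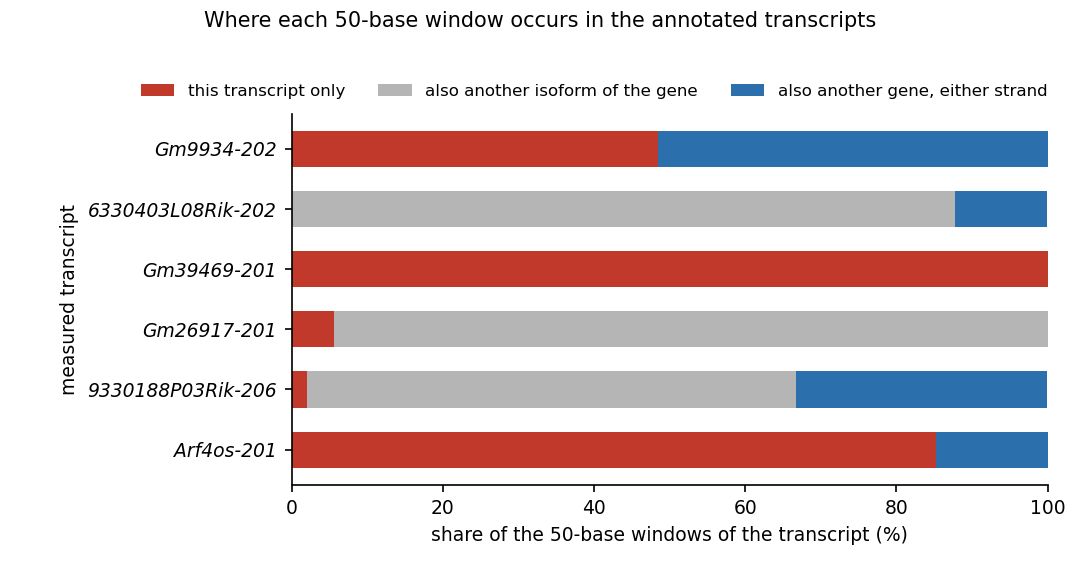
Share of the 50-base windows of each measured transcript, by where else they occur. Red windows occur in that transcript alone, and grey ones also in another isoform of the gene but in no other gene. Blue windows also occur in a transcript of another gene on either strand, whether or not another isoform holds them. Gm9934 therefore has no grey share, although 51.4% of its windows also occur in its other isoform. The red share is 100% for Gm39469-201 and 1 of 5473 windows for 6330403L08Rik-202.

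GC content was high in 4 of the 6 RNAs, at 58.1% in Gm9934-202, 58.9% in 6330403L08Rik-202, 54.6% in Arf4os-201 and 72.3% in Gm26917-201, each above 91.2% or more of the long non-coding set. It was 45.1% in 9330188P03Rik-206 and 40.8% in Gm39469-201, below the median of the set. Lengths ran from 461 to 5522 bases around a median of 942 for the set, and 5 of the 6 were spliced.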

How the data were processed

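Total RNA of 8 samples was depleted of ribosomal RNA and sequenced as paired reads, per the labels' protocols. CASAVA, HISAT2, HISAT, TopHat2 and StringTie are named in the submitters' processing notes, without roles. The genome build, the counting, its use of strand and the statistical test were not given in the sources used here, and neither was any version. The authors' deposited table has 156 rows with 1 level per group, a signal whose normalization is not stated. The deposited log2 fold change is shPaupar over control, and the deposited p-values come raw and adjusted by a method not named.

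A row shifted by 1 column was realigned and 1 repeated row dropped, leaving 155 features. Levels below 1e-10 were taken as listed at 0. The 6 loci equal transcripts of GENCODE M21, whose coordinates, exons and sequences were used; promoter windows are from RefSeq (GRCm38.p6). Of the 11 non-coding rows, 8 are deposited with more digits than the rest, and no other feature is. The ratio of adjusted to raw p fitted whole ranks (within 0.002) in 7 of these 8 for a total of 89072 tests, the smallest such total, where Gm9934 had rank 5 and Arf4os rank 488. This search was tested on simulated data.

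The genes, lists and neighbour rule were chosen with earlier results of these data known. Genes named are the 6, their neighbours, the other non-coding rows and the 2 features nearest in log2 ratio. No test between samples was run, since the table has no values per sample. The software was Python 3.11.15, SciPy 1.17.1, NumPy 2.4.6, pandas 2.3.3 and Matplotlib 3.10.9.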

Additional observations from a re-analysis of the deposited data

How the results depend on the processing

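Adding 0.1 or 1 to both levels gave log2 ratios of 6.31 and 6.15 for Gm9934 and of 8.98 and 8.10 for 6330403L08Rik. At an adjusted p of 0.01 in the authors' deposited table, 3 of the 6 genes were higher and 2 lower in shPaupar cells, and over all non-coding rows 3 were higher and 2 lower, against 8 and 3 at 0.05. Leaving out Gm26917, which lies beside ribosomal RNA, left 1 of the 6 genes lower. A minimum level of 10 in a group left the split at 4 and 2. It could remove none of the 6 genes, since the lowest, Arf4os, had 11.0 in shPaupar cells. A minimum of 1 for the size of the log2 fold change in the authors' deposited table also left it there, but this says nothing about stability, since for the 4 genes listed at 0 in a group the deposited value rests on how a level of 0 was treated. Within 5 Mb of the 6 genes there were 7 other rows, against 1 within 1 Mb or 100 kb. Restricting to rows deposited with more digits, a choice made after seeing the data, gave 6 non-coding rows higher and 2 lower. No paired analysis was possible because the table gives 1 value per group, and for the same reason no replicate could be left out. Depth and spread between samples are unknown.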

Other observations

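Features without a protein-coding annotation other than these non-coding genes were 3 in number. The locus XLOC_050829, which has no annotated gene, had a level of 391153 in shPaupar cells and was listed at 0 in control cells, and the authors' deposited table gives an adjusted p of 0.0117. The processed pseudogene Gm8225 was listed at 0 in shPaupar cells and had a level of 116 in control cells, with an adjusted p of 1.71e-07 in the authors' deposited table. Mx2, an interferon-induced GTPase gene annotated as a polymorphic pseudogene, had a level of 539 in shPaupar cells and 351 in control cells (log2 ratio 0.62).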
